A study of Mus musculus with 8 samples.

Results

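The genes examined were 10 of the Notch pathway core, chosen by name out of 21887 protein-coding genes: 4 receptors (Notch1, Notch2, Notch3 and Notch4), 2 Jagged ligands (Jag1 and Jag2), the DNA-binding factor Rbpj and 3 Mastermind coactivators (Maml1, Maml2 and Maml3). The group was chosen because Maml2 had the longest coverage by EPZ5676 peaks of any gene, so the covered lengths and peak layouts given here describe the genes and test nothing. The mark is H3K79me2, histone H3 dimethylated on lysine 79, mapped by chromatin immunoprecipitation and sequencing in mouse spermatogonial stem cell cultures. The treated cultures received 2 µM EPZ5676, which blocks DOT1L, the enzyme that methylates this lysine, for 7 days, and the control cultures received vehicle, which the protocols name as DMSO and the short descriptions of the controls as ethanol. Cells of all groups came from testes of the strain B6.129S7-Gt(ROSA)26Sor/J at an age of 7 days, whose mice carry a LacZ reporter in all tissues, and had been cultured for 2 months on SNL 76/7 feeders, a mouse fibroblast line, with 10 ng/mL GDNF and 0.5 ng/mL FGF2. No step that separated germ cells from feeders is named. The 8 samples form 4 groups of 2 (H3K79me2 and input, EPZ5676 and control), but each condition has 1 peak list, recorded under replicate 1. No value below has a replicate error, no test between conditions was possible, and the read depth is unknown.

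Notch receptors are surface proteins that are cut when a Delta-like or Jagged ligand on a neighbouring cell binds them. The freed intracellular part enters the nucleus, joins the DNA-binding protein RBPJ and recruits a Mastermind protein, which turns RBPJ from a repressor into an activator of genes such as Hes1. In the testis, Jagged ligands on germ cells and Notch receptors on Sertoli cells are known to take part in the exchange between germ cells and their niche. H3K79me2 is laid down over the bodies of transcribed genes, usually strongest just after the start.

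The EPZ5676 list held 9182 peaks over 4.64 Mb, and the control list held 47774 peaks over 168.9 Mb (mm10). The lowest deposited −log10 p was 4.03 in the EPZ5676 list and 2.36 in the control list, so the control list also admits peaks that are weaker by p. By q the lists ended at nearly the same value, with a lowest −log10 q of 1.04 in the EPZ5676 list and 1.05 in the control list. Over all protein-coding genes, 12.3% had an EPZ5676 peak, 52.7% a control peak, and 19.3% of control-marked genes also an EPZ5676 peak. The marker counts that follow are to be read beside these shares. Of 15 germ cell marker genes, 0 had an EPZ5676 peak and 15 had a control peak. Of 16 fibroblast feeder markers, 5 had an EPZ5676 peak and 12 a control peak, and their summed coverage was 13063 bp under EPZ5676 and 112334 bp in the control. Col1a2, Col3a1, Vim and S100a4 were without a peak in either list. The EPZ5676-marked feeder markers were Col5a1, Fbn1, Sparc, Twist2 and Prrx1, and the part of feeder chromatin in the results below was not tested. Of 15 testis somatic markers, 1 had an EPZ5676 peak and 5 had a control peak. The EPZ5676 peak, on Fshr, covered 179 bp, and Fshr had no control peak. The control-marked ones were Wt1 (9155 bp), Inhba (2640 bp), Nr2f2 (2343 bp), Inhbb (991 bp) and Amh (325 bp). The others, among them Sox9, Star and Acta2, had no peak in either list. The part of somatic chromatin was not tested either.

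Gene starts were taken from RefSeq promoter windows (GRCm38.p6) of 300 bp, running 250 bp before to 50 bp after a start. All 10 genes matched, with 12 windows, since Rbpj and Maml2 have 2 starts each. None of the 12 windows held an EPZ5676 peak, and the 2 overlapping Rbpj windows held a control peak, while over 21263 windows of protein-coding genes 13 (0.0611%) held an EPZ5676 peak and 2424 (11.4%) a control peak. The 3 windows below are shown because Maml2 has the longest EPZ5676 coverage, Maml3 is a paralog of nearly the same length without any, and Rbpj alone has a control peak in its window. Letters run in the direction of transcription, and capitals mark TGGGAA or its reverse complement TTCCCA, the core of the sequence RBPJ is known to bind.
Maml2, upstream start, chr9:13297708-13298007, plus strand: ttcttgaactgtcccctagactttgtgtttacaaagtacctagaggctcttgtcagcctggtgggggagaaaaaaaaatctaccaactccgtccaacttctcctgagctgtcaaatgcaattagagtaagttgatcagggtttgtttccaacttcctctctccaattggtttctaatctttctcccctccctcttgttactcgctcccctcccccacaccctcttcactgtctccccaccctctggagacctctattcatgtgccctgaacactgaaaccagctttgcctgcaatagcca
Maml3, chr3:52104957-52105256, minus strand: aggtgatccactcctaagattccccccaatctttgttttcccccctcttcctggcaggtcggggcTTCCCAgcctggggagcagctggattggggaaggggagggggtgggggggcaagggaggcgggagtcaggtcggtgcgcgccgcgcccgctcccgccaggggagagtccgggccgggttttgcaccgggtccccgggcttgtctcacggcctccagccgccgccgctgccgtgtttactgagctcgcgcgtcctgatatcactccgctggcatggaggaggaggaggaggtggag
Rbpj, upstream start, chr5:53590096-53590395, plus strand: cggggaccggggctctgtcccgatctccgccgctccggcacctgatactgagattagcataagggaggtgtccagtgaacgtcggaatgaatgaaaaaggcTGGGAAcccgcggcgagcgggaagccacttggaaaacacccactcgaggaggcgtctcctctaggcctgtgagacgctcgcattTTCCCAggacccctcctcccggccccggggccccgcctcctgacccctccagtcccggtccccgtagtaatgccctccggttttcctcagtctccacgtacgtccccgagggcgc
The Maml2 window was 48.0% G and C with 2 CpG dinucleotides, the Maml3 window 68.3% with 22, and the Rbpj window 64.7% with 26. Over all windows the medians were 56.3% and 13 CpG. The core was found in 4 of the 12 windows, 2 of them the overlapping Rbpj windows that share a match, and in 24.5% of all windows. It was absent from the Maml2 window shown and present in the downstream one. A match is a run of letters and does not show that RBPJ binds there.

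Of the 10 genes, 5 had an EPZ5676 peak (Notch1, Notch2, Jag1, Rbpj and Maml2), and a control peak lay on all 10. Over all protein-coding genes, 12.3% had an EPZ5676 peak and 52.7% a control peak, and 19.3% of control-marked genes also had an EPZ5676 peak. The median covered length of the 10 genes was 506.5 bp under EPZ5676 and 20507 bp in the control, against 0 bp under EPZ5676 and 602 bp in the control over all genes. The 506.5 bp is the midpoint between 0 bp and the 1013 bp of Jag1, since 5 of the 10 had no EPZ5676 peak. The medians over all genes include genes without a control peak, while all 10 genes had one. Among control-marked genes, long ones more often had an EPZ5676 peak. Of the 6 genes with a span of 20 to 50 kb, 2 had one (19.1% of all control-marked genes of that length), of the 2 of 50 to 200 kb both had one (38.6%), and of the 2 above 200 kb 1 had one (52.1%). None of the 10 spans overlaps another protein-coding gene.

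**Figure D1:**
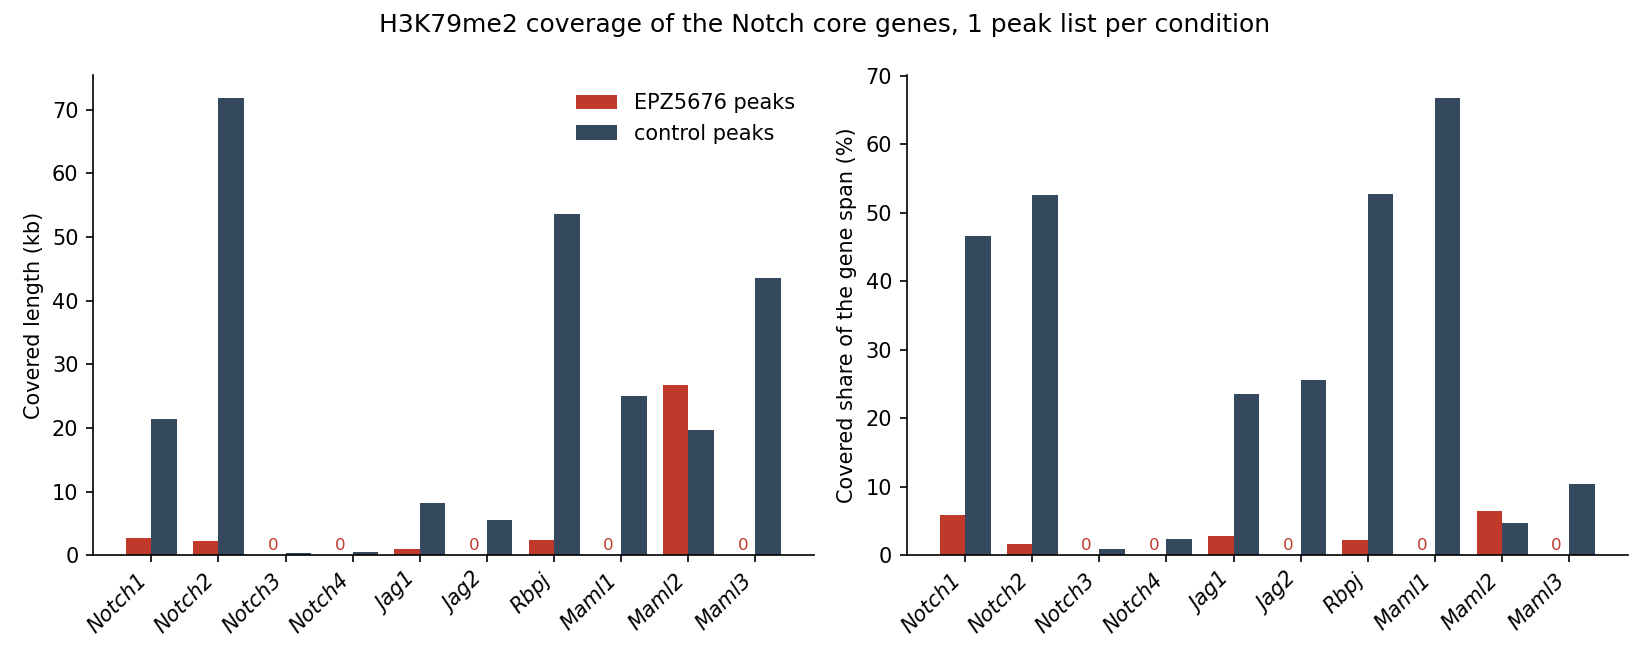
Length (left, kb) and share of the gene span (right, %) covered by peaks of the EPZ5676 list (red) and of the control list (dark) for each of the 10 genes, with 1 list per condition and so no error bars. Maml2 is the gene whose EPZ5676 bar (26739 bp) is higher than its control bar (19629 bp), and 5 genes have an EPZ5676 coverage of 0.

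Among the receptors, Notch1 and Notch2 carried broad control domains from just after the start, and kept short EPZ5676 peaks inside them. Notch1, a receptor widely used in stem cell maintenance (chromosome 2, 26457902 to 26503822, minus strand), had 2687 bp covered under EPZ5676 in 3 peaks and 21385 bp in the control in 3 peaks, or 5.85% of its span under EPZ5676 and 46.6% in the control. Its main control peak ran 20322 bp, began 391 bp after the start and had a deposited fold enrichment of 3.95. The EPZ5676 peaks of 862, 456 and 1369 bp (26488104 to 26488965, 26495794 to 26496249 and 26498260 to 26499628) all lay in that domain, the nearest 4.19 kb from the start. Of the other control peaks, one of 951 bp lay at the far end of the gene, and one of 1196 bp lay mostly beyond that end, over the lncRNA gene 0610009E02Rik, with less than 50% of it in Notch1.

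Notch2 (chromosome 3, 98013538 to 98150367, plus strand) had the longest control coverage of the 10 genes. It had 2246 bp under EPZ5676 in 4 peaks and 71903 bp in the control in 9 peaks, or 1.64% of its span under EPZ5676 and 52.5% in the control. The widest control peak, 57179 bp from 314 bp after the start, was wider than 99.7% of the control list and had a fold enrichment of 4.83. The 4 EPZ5676 peaks sat close together, from 3.61 to 7.58 kb after the start. The widest of them, 1037 bp (98020080 to 98021116), had a fold enrichment of 3.13, above 97.0% of the EPZ5676 list, and the others were 208, 147 and 854 bp. No EPZ5676 peak lay in the rest of that domain, which ends 57.5 kb after the start.

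Notch3 and Notch4 were barely marked, and not near their starts. Notch3 (chromosome 17, 32120820 to 32166896), a receptor best known in vascular smooth muscle, had 0 bp under EPZ5676 and 442 bp in the control. That single control peak lay 44.7 kb after the start, at the far end of the gene, inside the overlapping lncRNA gene Gm38585, and its fold enrichment of 2.07 exceeded that of 9.11% of the control list. Notch4 (chromosome 17, 34564286 to 34588543), known from endothelial cells, had 0 bp under EPZ5676 and 597 bp in the control. Its control peak of 1399 bp ran past the end of the gene, so less than 50% of that peak counts for Notch4. That peak was stronger than the one of Notch3, with a fold enrichment of 2.79, above 80.1% of the control list. The 4 receptors thus fall into a pair with domains at the start and a pair with an isolated peak at the far end, weak in Notch3 and mostly outside the gene in Notch4.

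The ligands carried narrower domains. Jag1 (chromosome 2, 137081451 to 137116520, minus strand) had 1013 bp under EPZ5676 in 1 peak and 8284 bp in the control in 3 peaks, or 2.89% of its span under EPZ5676 and 23.6% in the control. The EPZ5676 peak (137110811 to 137111823) lay 4.70 kb after the start, inside the widest control peak of 7544 bp, whose fold enrichment was 4.09. Jag2 (chromosome 12, 112907803 to 112929812, minus strand) had 0 bp under EPZ5676 and 5621 bp in the control, or 25.5% of its span. Its 1 control peak began 1.13 kb after the start and had a fold enrichment of 3.94. Jag1 and Jag2 had similar shares of their spans covered in the control and differed in having an EPZ5676 peak or not, a difference of 1 peak with no replicate behind it.

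Rbpj had the strongest control peak of the 10 genes. The gene (chromosome 5, 53555779 to 53657445, plus strand), which encodes the factor that all 4 receptors act through, had 2355 bp under EPZ5676 in 5 peaks and 53564 bp in the control in 10 peaks, or 2.32% of its span under EPZ5676 and 52.7% in the control. The widest control peak, 36693 bp from 737 bp after the start, had a fold enrichment of 7.51, higher than that of 99.8% of the control list. All 5 EPZ5676 peaks lay inside it, between 2.15 and 27.7 kb after the start, at widths of 202, 175, 1390, 274 and 314 bp, and their folds of 2.69 to 2.75 were near the median of the EPZ5676 list (2.75). The RefSeq span begins well before this start, and the peaks there were control peaks only, the farthest reaching 4.03 kb before it.

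**Figure D2:**
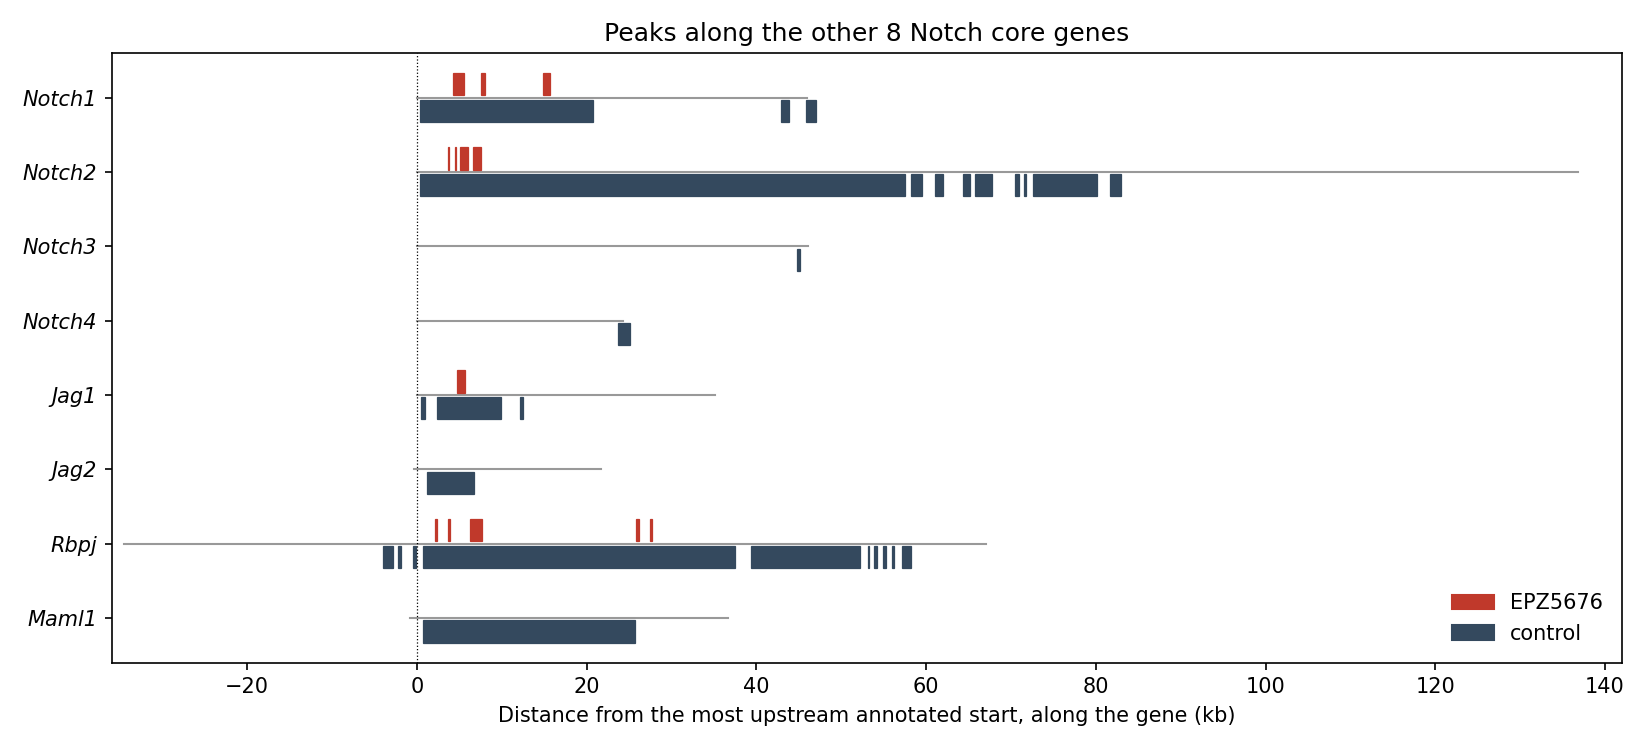
Peaks of the EPZ5676 list (red, above each line) and of the control list (dark, below it) along the 8 genes other than Maml2 and Maml3, by distance from the most upstream annotated start in kb in the direction of transcription. Grey lines are the gene spans. The EPZ5676 peaks of Notch1, Notch2, Jag1 and Rbpj all stand above the widest control peak of their gene.

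For 4 of the 5 EPZ5676-marked genes, every EPZ5676-covered base lay within control peaks, as in 82.3% of the 2228 genes with peaks in both lists. Of the 4 genes with a control peak of 20 kb or wider (Notch1, Notch2, Rbpj and Maml1), 3 had an EPZ5676 peak, against 58.2% of such genes. The nearest EPZ5676 peak lay 2.15 kb (Rbpj) to 4.70 kb (Jag1) after the start, Maml2 included. Over 2081 genes with a known start the median was 4.00 kb (quartiles 2.16 and 11.4 kb). Control peaks began nearer, at a median of 0.390 kb over 9260 genes (quartiles 0.166 and 0.812 kb), a larger set than the genes with an EPZ5676 peak. In Notch1, Notch2, Jag1 and Rbpj the first control peak after the start also began nearer than the first EPZ5676 peak. In Maml2 the order was the reverse, at 3.70 kb under EPZ5676 and 3.84 kb in the control.

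The 3 Mastermind genes, whose products bridge the Notch and RBPJ complex to histone acetyltransferases, had 3 different layouts. Maml1 (chromosome 11, 50255634 to 50293131, minus strand) had 0 bp under EPZ5676 and 25048 bp in the control, all in 1 peak that began 655 bp after the start. That peak covered 66.8% of the span, the highest share of the 10 genes, with a fold enrichment of 3.99. Maml1 was the gene with a control domain above 20 kb and no EPZ5676 peak.

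Maml2 (chromosome 9, 13296561 to 13709533, plus strand) was the one gene of the 10 with the longer coverage under EPZ5676. It had 26739 bp under EPZ5676 in 30 peaks and 19629 bp in the control in 20 peaks, or 6.47% of its span under EPZ5676 and 4.75% of it in the control; the span is 412973 bp long. Of all genes with peaks in both lists, 68 (3.05%) had the longer coverage under EPZ5676, and their median EPZ5676-covered length was 1536 bp. Setbp1, next below Maml2 in EPZ5676-covered length, had 25709 bp under EPZ5676 and 25665 bp in the control. By share of the span Maml2 ranked 198 of 2697 EPZ5676-marked genes, and by number of EPZ5676 peaks it ranked 3.

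The peaks of Maml2 fell into clusters that the 2 lists shared in part. In the first 30 kb after the upstream start lay 5 EPZ5676 peaks over 11803 bp and 5 control peaks over 9500 bp. The widest EPZ5676 peak, 5935 bp (13317133 to 13323067), overlapped the widest control peak, 4813 bp (13317015 to 13321827), and a second of 4024 bp (13305935 to 13309958) also met control peaks. From 30 to 130 kb neither list had a peak. From 130 to 230 kb there were 11 EPZ5676 peaks over 6815 bp and 12 control peaks over 8475 bp. Beyond 230 kb the lists parted, with 8 EPZ5676 peaks over 4329 bp and 1 control peak over 474 bp up to 330 kb, and 6 EPZ5676 peaks over 3792 bp and 2 control peaks over 1180 bp after it. In all, 11 of the 30 EPZ5676 peaks overlapped a control peak, and 13 of the 20 control peaks an EPZ5676 peak. Of the EPZ5676-covered bases 39.97% lay in control peaks, and 10.7% of genes with both had a share below 50%. Of the control-covered bases, 54.4% were covered under EPZ5676 as well, against 12.6% in Notch1, 12.2% in Jag1, 4.397% in Rbpj and 3.12% in Notch2.

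By median fold enrichment, the EPZ5676 peaks of Maml2 lay near the median of their list and its control peaks below the median of theirs. Single peaks lay on both sides of these list medians. The fold enrichment of its 30 EPZ5676 peaks ranged from 2.65 to 3.06 with a median of 2.79, slightly above that of the EPZ5676 list (2.75). The highest of the 30 exceeded 94.8% of that list. The fold enrichment of the Maml2 control peaks ranged from 2.05 to 2.51 with a median of 2.197, below the median of the control list (2.30). The excess of EPZ5676 coverage depended on the threshold. Of its 20 control peaks 1, of 200 bp, reached the lowest −log10 p of the EPZ5676 list. With both lists held to a −log10 q of at least 2, Maml2 had 6624 bp under EPZ5676 in 2 peaks and 8294 bp in the control in 6 peaks, which turns the direction. At that threshold Notch2 (1037 bp) was the only other of the 10 genes with an EPZ5676 peak, and 1.91% of all genes had one.

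Maml3 (chromosome 3, 51687320 to 52105319, minus strand) has a span of 418000 bp, close to that of Maml2. It had 0 bp under EPZ5676 and 43635 bp in the control in 37 peaks, or 10.4% of its span, more than the 4.75% of Maml2. The control peaks lay densest in the first 30 kb (7 peaks over 15779 bp) and continued as 16 peaks over 12714 bp up to 130 kb, a stretch in which Maml2 had none. A separate peak of 7189 bp (51789098 to 51796286), 309 kb after the start, was the widest and the strongest, with a fold enrichment of 3.47. Of the 37 control peaks 5 reached the lowest −log10 p of the EPZ5676 list. Among 249 genes with a span of at least 200 kb and at least 40 kb covered in the control, 57.4% had an EPZ5676 peak.

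**Figure D3:**
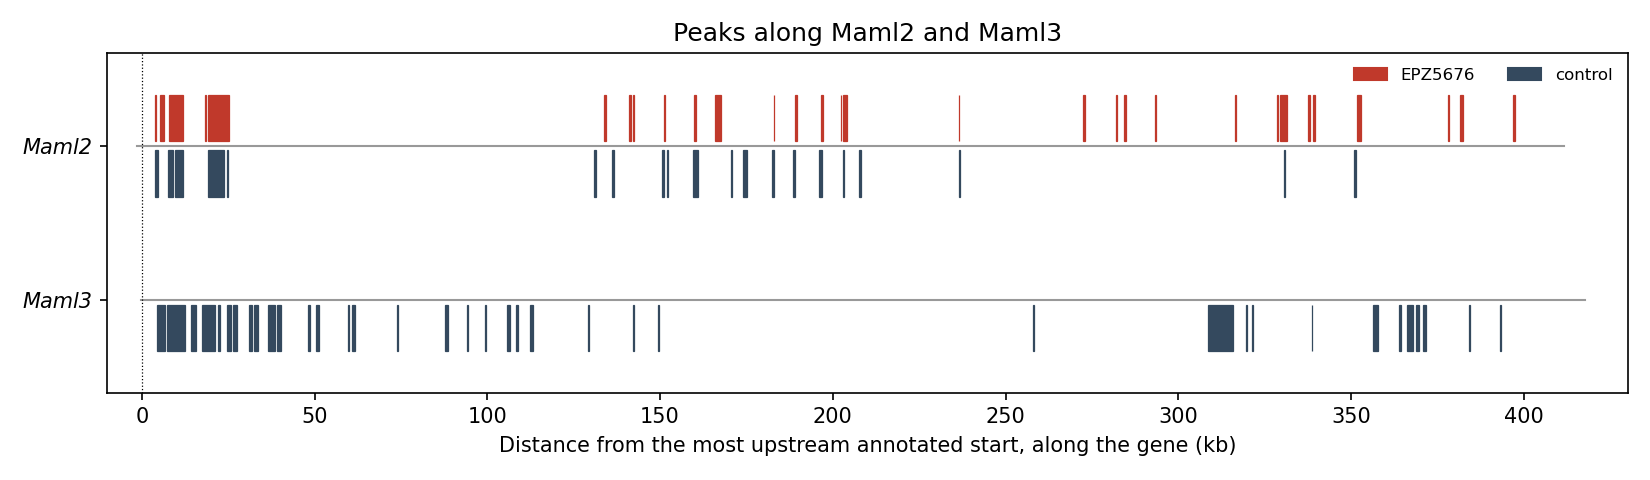
Peaks of the EPZ5676 list (red, above each line) and of the control list (dark, below it) along Maml2 and Maml3, by distance in kb in the direction of transcription. Distances run from the most upstream start in the RefSeq promoter windows, and grey lines are the gene spans. Maml2 has 30 EPZ5676 and 20 control peaks with none of either from 30 to 130 kb, and Maml3 has 0 EPZ5676 and 37 control peaks.

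The 5 genes nearest to Maml2 in control-covered length, EPZ5676-covered length and span, by Euclidean distance on log10 scales over the 2 lists, were Setbp1, Ptprm, Frmd4a, Tiam2 and Egfr. Setbp1 stood at a distance of 0.132, and the next, Ptprm, at 0.382. Ptprm, which encodes a receptor tyrosine phosphatase, had 14114 bp under EPZ5676 and 14182 bp in the control. Egfr, which encodes a receptor tyrosine kinase, had 16033 bp under EPZ5676 and 20402 bp in the control. Frmd4a had 11885 bp under EPZ5676 and 33774 bp in the control, and Tiam2, whose span overlaps another gene, had 14326 bp under EPZ5676 and 28571 bp in the control.

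**Figure D4:**
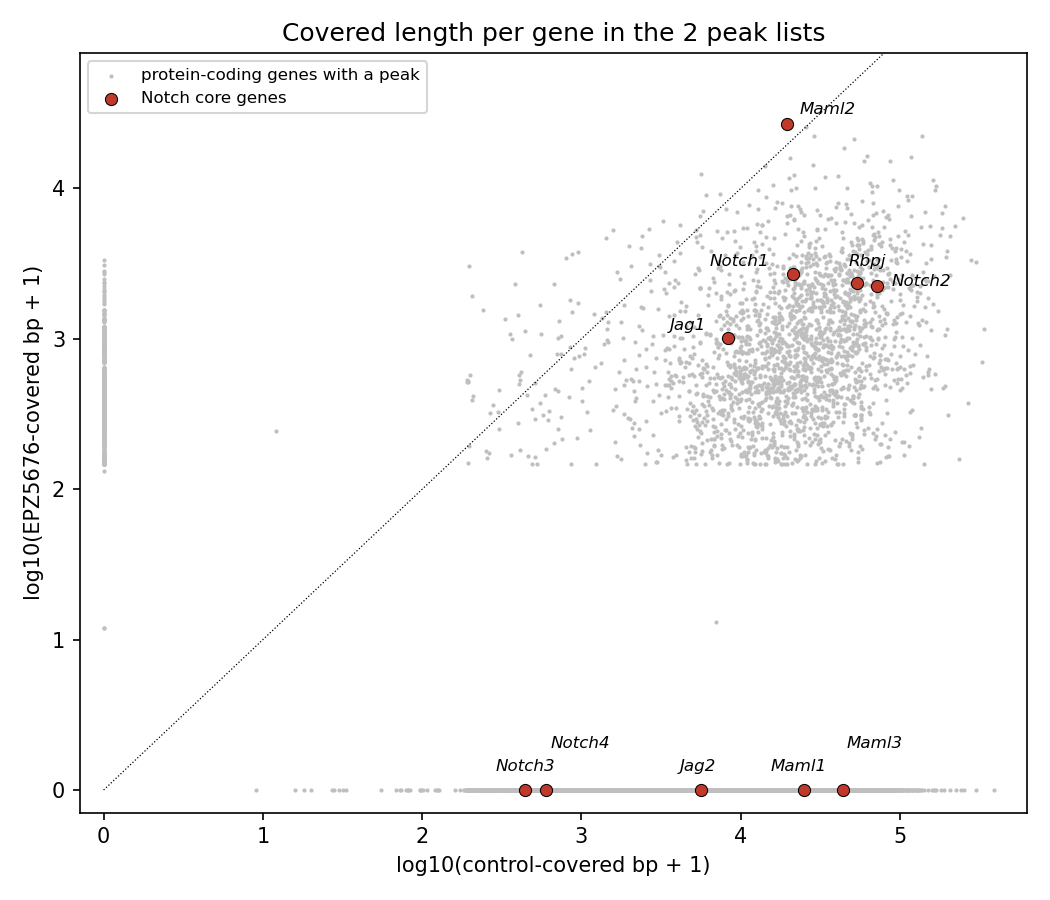
Each point is a protein-coding gene with a peak in at least 1 list, placed by log10(control-covered bp + 1) on the horizontal axis and log10(EPZ5676-covered bp + 1) on the vertical axis; the dotted line marks equal lengths. Maml2 is the highest point and lies above the line, Notch1, Notch2, Jag1 and Rbpj lie below it, and the other 5 Notch genes lie at 0 on the vertical axis.

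Of 57 other Notch pathway genes, listed by role, 8 had an EPZ5676 peak (14.0%) and 45 a control peak (78.9%). Over all protein-coding genes these shares were 12.3% and 52.7%, so the EPZ5676 share was near that of all genes. Of the 45 control-marked genes 7 also had an EPZ5676 peak, against 19.3% of all control-marked genes. The counts by role below are to be read beside these shares. The remaining ligand genes were unmarked in the control: none of Dll1, Dll3, Dll4, Dlk1, Dlk2 and Dner had a control peak. Dner, a long gene for a Notch-binding membrane protein, had 1449 bp under EPZ5676 in 4 peaks. Of 10 genes of receptor cleavage, 1 had an EPZ5676 peak and 8 a control peak. That 1 was Adam10, the protease of the ligand-triggered cut, with 1124 bp under EPZ5676 and 45629 bp in the control. Adam17 had 0 bp under EPZ5676 and 16976 bp in the control, over a span that another gene overlaps, and Aph1b and Aph1c, alternative gamma-secretase subunits, had no peak in either list. Of 5 glycosylation genes, 0 had an EPZ5676 peak and 4 a control peak, led by Pofut1 (5307 bp) and Poglut1 (4436 bp), which add sugars to the receptors, while Mfng had none.

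Of 13 genes of endocytosis and turnover, 2 were marked under EPZ5676 and 13 in the control. Mib1, the ubiquitin ligase that drives ligand uptake, had 2954 bp under EPZ5676 and 24205 bp in the control, and Aak1, an endocytic kinase gene, had 2030 bp under EPZ5676 and 73670 bp in the control. Fbxw7, which marks the Notch intracellular part for destruction, had 0 bp under EPZ5676 and 96854 bp in the control. Of 16 coactivators and corepressors of RBPJ, 4 were marked under EPZ5676 and 16 in the control. Crebbp, a histone acetyltransferase gene, had 6640 bp under EPZ5676 in 10 peaks and 83986 bp in the control. Spen, a corepressor gene that partly overlaps another gene, had 3373 bp under EPZ5676 and 46336 bp in the control. Ncor1, a corepressor gene also overlapped by another gene, had 298 bp under EPZ5676 and 31875 bp in the control. Of 7 target genes, 0 had an EPZ5676 peak and 4 a control peak, with 1896 bp at Hes1, 1856 bp at Nrarp, 595 bp at Hes5 and 473 bp at Heyl, and none at Hes7, Hey1 and Hey2. Among all 57, Dner was the one gene with longer EPZ5676 than control coverage.

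**Figure D5:**
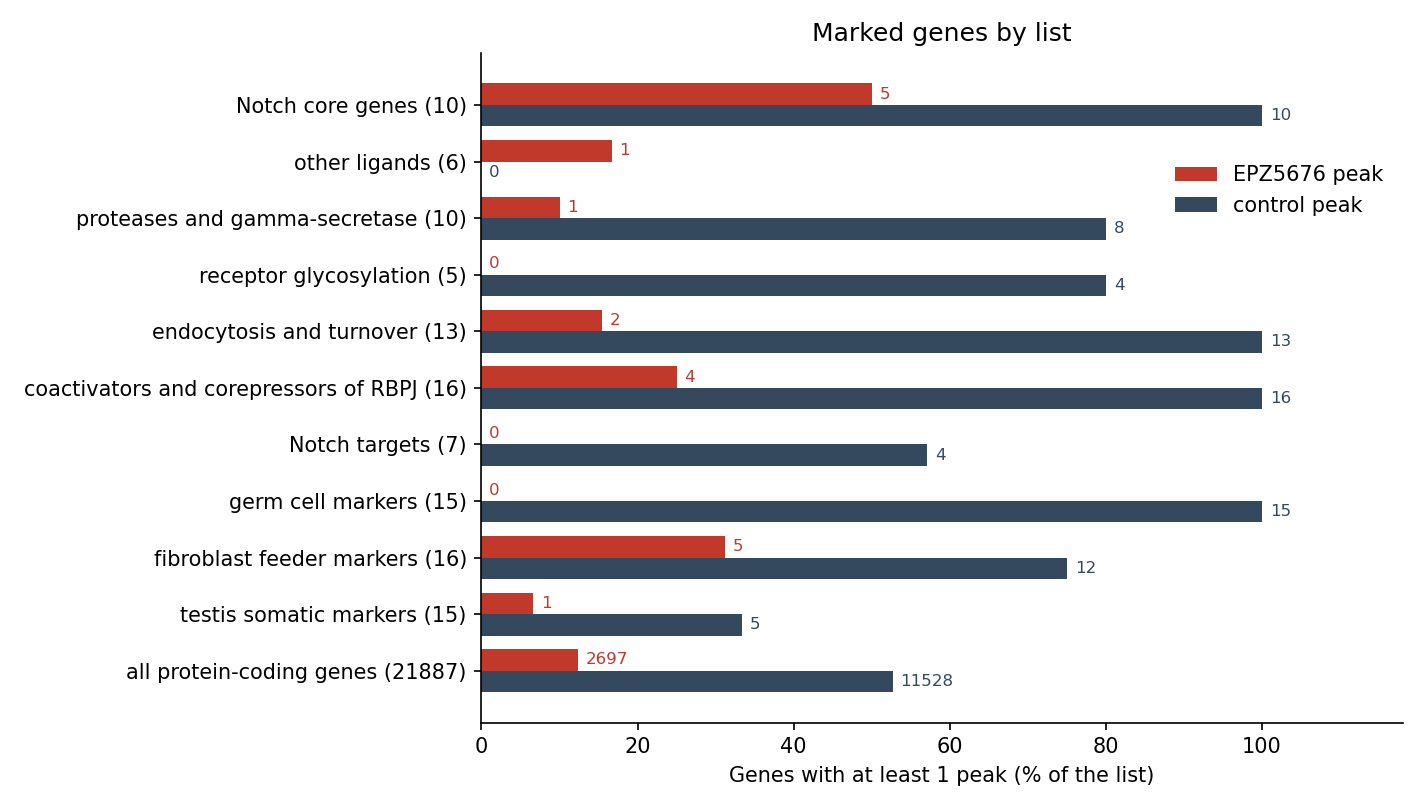
Share of each list (%, number of genes in brackets) with at least 1 EPZ5676 peak (red) or control peak (dark), with the number of marked genes at each bar; 1 peak list per condition. Of the 10 Notch core genes 5 had an EPZ5676 peak and 10 a control peak, of the 6 other ligands 1 had an EPZ5676 peak and 0 a control peak, and of the 15 germ cell markers 0 had an EPZ5676 peak and 15 a control peak. Over all protein-coding genes the shares were 12.3% and 52.7%.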

How the data were processed

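Peak lists of H3K79me2 in mouse spermatogonial stem cell cultures were used, 1 for EPZ5676 and 1 for control, each a headerless file of 9 columns as broad peak callers write. The submitters' processing notes name Trimmomatic, deepTools, bcl2fastq 2.20.0.422 and the build mm10. Not given in the sources used here are the aligner, the peak caller, the use of the inputs and any pooling of replicates. The deposited score is about 10 times −log10 q. The deposited fold enrichment is each peak's ratio over its background, and the deposited −log10 p and −log10 q are the authors' own. All of them served only to describe, rank or filter peaks within a list.

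RefSeq GRCm38.p6, the same assembly as mm10, gave the spans of protein-coding genes on the 19 autosomes and the sex chromosomes. Marked genes are those with 1 bp or more of the span under a peak, and covered length is the number of bases of the span under peaks. Distances run from the most upstream start in the RefSeq promoter windows. Computation used Python 3.11.15, numpy 2.4.6 and pandas 2.3.3, and was tested on simulated intervals. Alternatives were a −log10 q of at least 2, the control list at the p floor of the EPZ5676 list, peaks of at least 500 bp, 500 bp of covered span, at least 50% of the peak in the span, and leaving out bases shared with other protein-coding genes.

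The genes and lists were chosen with earlier results of these data known. The 10 genes were all described; for Maml2 the 5 nearest genes and the gene next below it were named, and from each list every gene with an EPZ5676 peak, the 2 with the longest control coverage and those without a control peak, except 1 gene that is counted but not reported by name here. The lists do not give read depth, and no column was left unmapped (0 columns).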

Additional observations from a re-analysis of the deposited data

How the results depend on the processing

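Of 36 recomputed values (6 results under 6 settings), 30 kept their direction and stayed close to the value above: counts within 1.5 times of it, and the Maml2 difference at the same 7110 bp under 3 settings that do not touch its peaks. With both lists at a −log10 q of at least 2, 2 of the 10 genes had an EPZ5676 peak instead of 5, 0 had the longer EPZ5676 coverage instead of 1, 1 of the 57 other pathway genes had an EPZ5676 peak instead of 8, and the Maml2 difference (EPZ5676 minus control) was -1670 bp instead of 7110 bp. This setting leaves 648 EPZ5676 and 27130 control peaks, and 1.91% of all protein-coding genes then had an EPZ5676 peak. With the control list at the p floor of the EPZ5676 list, which leaves 17910 control peaks, the Maml2 difference was 26539 bp, and with peaks of at least 500 bp it was 5030 bp. At that p floor 758 protein-coding genes had the longer EPZ5676 coverage, against 537 without it, genes lacking a control peak included. The number of the 10 genes with a control peak was 9 or 10 under every setting. Where it was 9, the gene lost was Notch4 when at least 50% of the peak had to lie in the span, and Notch3 otherwise. Leaving out a replicate was not possible, since each condition has 1 list. No paired analysis was possible because the values come from no test and no replicate has a list of its own. Unknown depth limits what a missing EPZ5676 peak shows: it says that no peak was called, not that the mark was absent.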

Other observations

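Noncoding genes lie inside several of the spans. Phxr4, a lncRNA gene within Maml2 (chromosome 9, 13431361 to 13432751), had 497 bp under EPZ5676 and 0 bp in the control, and Gm51666, also within Maml2, had 603 bp under EPZ5676 and 0 bp in the control. Gm40103, a lncRNA gene within Notch2, lay wholly in the control domain (0 bp under EPZ5676, 3803 bp in the control). The microRNA genes Mir6996 in Notch1 and Mir6941 in Jag2 were under no peak of either list.

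The flanks of 100 kb beside each gene differed in their own coverage. Both flanks of Rbpj and the upstream flanks of Notch2, Jag1 and Maml3 held no peak of either list, so the control coverage of these genes stood apart from their surroundings on those sides. Beside Maml2, the upstream flank, which reaches Ccdc82 and Jrkl, held 412 bp under EPZ5676 and 3271 bp in the control. The downstream flank, with Cep57 and Mtmr2, held 1578 bp under EPZ5676 and 32098 bp in the control. The longer EPZ5676 than control coverage of Maml2 was thus not found in either of its flanks.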
